A study of Mus musculus with 188 samples.

Results

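The AXB and BXA recombinant inbred strains share the parents A/J and C57BL/6J, which were crossed in opposite directions. The 15 AXB strains (33 arrays) were set against the 13 BXA strains (26 arrays), with 1 mean per strain and the strain as the replicate. Strains were assigned by the first letters of their strain label, and these 28 strains were all that carried either prefix among 94 strains. Aortas came from wild-type males, 16 weeks old, kept on chow without treatment, and total RNA was hybridised to Affymetrix HT_MG-430A arrays. The wider study profiled aortic expression over a panel of inbred strains for association mapping, and it gives no separate purpose for the direction of the cross. The AXB strains were AXB1/PgnJ, AXB2/PgnJ, AXB4/PgnJ, AXB5/PgnJ, AXB6/PgnJ, AXB8/PgnJ, AXB10/PgnJ, AXB12/PgnJ, AXB13/PgnJ, AXB15/PgnJ, AXB19/PgnJ, AXB19a/PgnJ, AXB19b/PgnJ, AXB23/PgnJ and AXB24/PgnJ. The BXA strains were BXA1/PgnJ, BXA2/PgnJ, BXA4/PgnJ, BXA7/PgnJ, BXA8/PgnJ, BXA11/PgnJ, BXA12/PgnJ, BXA13/PgnJ, BXA14/PgnJ, BXA16/PgnJ, BXA24/PgnJ, BXA25/PgnJ and BXA26/PgnJ. The parents A/J (2 arrays) and C57BL/6J (3 arrays) served to describe parental levels and entered no AXB or BXA mean.

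By convention the strain of the dam is named first, so AXB lines start from A/J dams and BXA lines from C57BL/6J dams. In such crosses the mitochondrial genome comes from the dam strain and the Y chromosome from the sire strain. Males of the first generation carry only the dam's X chromosome, so alleles of the dam strain are in excess on the X of the lines that follow. Autosomal alleles of both parents enter equally and are then fixed at random in each line during inbreeding. The labels state neither the dam nor the sire of any line.

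Array medians lay between 4.56 and 4.86 on the log2 scale. Averaged per array, the correlation over probe sets was 0.86 to 0.989 (median 0.965) within the strain and 0.851 to 0.963 (median 0.954) with other strains, and 3 arrays (AXB2/PgnJ array 2, AXB23/PgnJ array 2 and BXA8/PgnJ array 2) lay under 0.9 with other strains. The arrays of BXA16/PgnJ disagreed with each other, and which of them fit the label is not known. Over 20 marker genes whose levels separate the parents, array 3 of BXA16/PgnJ fell on the same side of the parental midpoint as arrays 1 and 2 of that strain for 11 and 8 genes, whereas the other 33 pairs of arrays of 1 strain shared 15 to 20 (median 18). For H2-D1, a class I histocompatibility gene, the library labelled BXA16/PgnJ array 3 read 3.34, against 10.76 and 10.51 on the strain's other arrays. The autosomal count, Col4a6 and the parental comparison are given with and without it. The highest correlation between any pair of arrays was 0.989, and its largest difference at a probe set was 6.16 (log2), so none was taken as a repeat. The labels do not say that arrays of a strain came from separate mice.

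No autosomal transcript was called different between AXB and BXA aortas. Of 17157 autosomal probe sets with 1 gene symbol (11314 genes), 0 had an adjusted p under 0.05 (limma, Benjamini-Hochberg over all 22327 probe sets; 0%), and the lowest adjusted p was 0.606. At an unadjusted p under 0.05 there were 630 (3.67%), of which 276 (1.61%) were higher and 354 (2.06%) lower in AXB. The count called was 0 as well without the library labelled BXA16/PgnJ array 3, where 591 had an unadjusted p under 0.05, and with the sister lines AXB19/PgnJ, AXB19a/PgnJ and AXB19b/PgnJ counted once, where 530 did. With the library labelled BXA16/PgnJ array 3 alone for its strain, 0 were called and 745 had an unadjusted p under 0.05. Without arrays whose mean correlation with other strains lay under 0.9, 0 were again called, but 1377 had an unadjusted p under 0.05.

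The size of difference that the 28 strains left possible was small for most probe sets, many of which were dim. The median autosomal difference was 0.01 and the median absolute difference 0.0544 on the log2 scale. The 95% interval of the difference reached a median of 0.199 to either side, and it lay inside a 2-fold change either way for 16871 autosomal probe sets (98.3%) and inside a 1.5-fold change for 15641 (91.2%). However, 7780 of the 17157 autosomal probe sets had means below the lowest array median (4.56) in both sets. At such levels a narrow interval does not show that expression differed little. Differences beyond 0.5 were found for 104 autosomal probe sets, and beyond 1 for 3. Those 3, singled out after their values were seen, were Rpgrip1 (1.35), a protein of the photoreceptor cilium, the gluconeogenic enzyme Fbp1 (1.34) and the lymphoid transcription factor Irf4 (1.17).

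**Figure D1:**
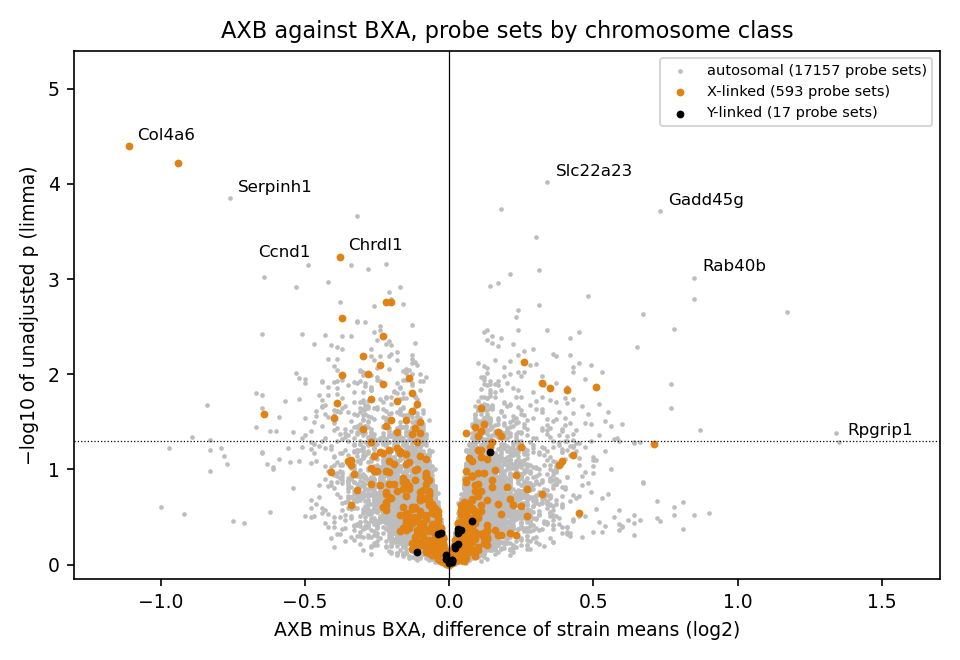
Each point is a probe set, with the AXB minus BXA difference of strain means (log2) on the horizontal axis and −log10 of limma's unadjusted p on the vertical axis; grey points are autosomal, orange X-linked and black Y-linked, and the dotted line marks an unadjusted p of 0.05. The 2 points furthest to the upper left are the 2 Col4a6 probe sets, at -1.11 and -0.94.

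The autosomal genes with the smallest p on the AXB-high side included a solute carrier, a stress gene and a metal-binding protein. Slc22a23 on chromosome 13, an orphan member of the organic ion transporter family, had strain means of 7.32 to 7.87 (median 7.68) in AXB and 6.84 to 7.68 (median 7.29) in BXA. Every AXB strain lay above the BXA median, yet the sets overlapped, since BXA26/PgnJ and BXA14/PgnJ were as high as many AXB strains. The difference was 0.34 (95% interval 0.19 to 0.50, adjusted p = 0.606 by limma). Gadd45g, also on chromosome 13, encodes a growth arrest protein that is induced by stress. Its strain means were 8.65 to 10.61 (median 9.18) in AXB and 7.80 to 9.62 (median 8.65) in BXA. AXB1/PgnJ stood highest and BXA7/PgnJ lowest, and 4 AXB strains exceeded every BXA strain. The difference of 0.73 (0.38 to 1.08) had an adjusted p of 0.606 by limma.

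Mt1 on chromosome 8, the metallothionein that buffers zinc and copper, reached 12.28 to 13.13 (median 12.55) in AXB and 11.94 to 12.47 (median 12.31) in BXA. Of the AXB strains, 10 exceeded every BXA strain, with AXB1/PgnJ again the highest. Its difference was 0.30 (0.15 to 0.45, adjusted p = 0.895 by limma), and a second probe set of the gene gave 0.49. Rab40b on chromosome 11, a small GTPase that recruits a ubiquitin ligase, had strain means of 4.32 to 7.39 (median 5.07) in AXB and 3.89 to 4.67 (median 4.35) in BXA. The AXB strains were spread widely (SD 0.83, against 0.25 in BXA), with AXB1/PgnJ far above the rest and 10 strains over every BXA strain. The difference was 0.85 (0.38 to 1.33, adjusted p = 0.963 by limma) and 0.69 without AXB1/PgnJ. A second, dimmer Rab40b probe set gave 0.42. The parents differed in the opposite direction for Rab40b: the A/J arrays averaged 4.19 and the C57BL/6J arrays 5.21, a difference of -1.01 that was not called (adjusted p = 0.757 by limma).

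The 6 other genes of the AXB-high side differed by 0.14 to 0.48. They included Mterf4 (0.31), which is needed to assemble the mitochondrial ribosome, and Slc25a51 (0.48), the carrier that brings NAD into mitochondria. Other probe sets of Slc25a51 gave 0.46 and -0.18, so its probe sets disagreed in sign. Ypel1 (0.18), the brush border myosin Myo7b (0.21), the signalling ubiquitin ligase Traf6 (0.17) and the SNARE protein Snap29 (0.14) had means below the lowest array median in both sets. Ypel1 probe sets also disagreed in sign: a brighter one gave -0.04 and another dim one 0.07.

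The AXB-low side included the chaperone gene Serpinh1 and the cyclin genes Ccnd1 and Ccnd2. Serpinh1 on chromosome 7 encodes the collagen chaperone of the endoplasmic reticulum. Its strain means were 7.39 to 9.35 (median 8.08) in AXB and 8.21 to 9.63 (median 9.06) in BXA. Of the AXB strains, 9 lay below every BXA strain, but AXB8/PgnJ was among the highest of all. The difference was -0.76 (-1.11 to -0.41, adjusted p = 0.606 by limma). A second Serpinh1 probe set differed by -0.39 (-0.73 to -0.06), about as far as the upper end of the first one's interval. Nipsnap3b on chromosome 4, a member of a family of mitochondrial proteins, differed by -0.32 (adjusted p = 0.606 by limma), with 6 AXB strains below every BXA strain and 6 BXA strains above every AXB strain.

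The D-type cyclins, regulators that carry growth signals into the cell cycle, gave 2 of the 10 genes on this side. Ccnd1 on chromosome 7 had strain means of 4.78 to 6.07 (median 5.43) in AXB and 5.30 to 6.57 (median 5.94) in BXA. The sets overlapped over most of their range, with 2 AXB strains (AXB12/PgnJ and AXB23/PgnJ) above the BXA median. The difference was -0.49 (-0.75 to -0.22, adjusted p = 0.963 by limma), and 2 further Ccnd1 probe sets gave -0.39 and -0.65. Ccnd1 was the 1 autosomal probe set that passed in any setting: with each strain's scores for thymocytes, squamous epithelium and skeletal muscle as covariates it differed by -0.54 with an adjusted p of 0.0185 by limma. Ccnd2 on chromosome 6 differed by -0.42 (-0.66 to -0.19, adjusted p = 0.963 by limma), and its 5 other probe sets ranged from -0.53 to -0.09. The related cyclin Ccnd3, added after values were seen, differed by -0.05. For Ccnd1 the parents averaged 5.29 (A/J) and 5.26 (C57BL/6J), and for Ccnd2 the A/J arrays averaged 6.79 and the C57BL/6J arrays 7.73 (not called).

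Grb14 on chromosome 2, an adaptor that inhibits the insulin receptor, ran from 5.33 to 7.31 (median 6.13) in AXB and from 6.00 to 7.33 (median 7.03) in BXA. AXB8/PgnJ was again the exception, level with the highest BXA strains, and the difference was -0.64 (-1.0 to -0.28, adjusted p = 0.963 by limma). Eid1 on chromosome 2, an inhibitor of the acetyltransferase EP300, had strain means of 5.64 to 6.24 (median 6.06) in AXB and 5.71 to 6.64 (median 6.36) in BXA. No AXB strain exceeded the BXA median, and 9 BXA strains exceeded every AXB strain. Eid1 differed by -0.34 (adjusted p = 0.963 by limma), and its other probe sets gave -0.30 and -0.28. The remaining 4 genes were the co-chaperone Stip1 (-0.22), which joins Hsp70 to Hsp90, the transcriptional repressor Snai2 (-0.21), the tight junction protein Marveld2 (-0.20) and the proteoglycan Spock3 (-0.17), the last 2 with means below the lowest array median in both sets.

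**Figure D2:**
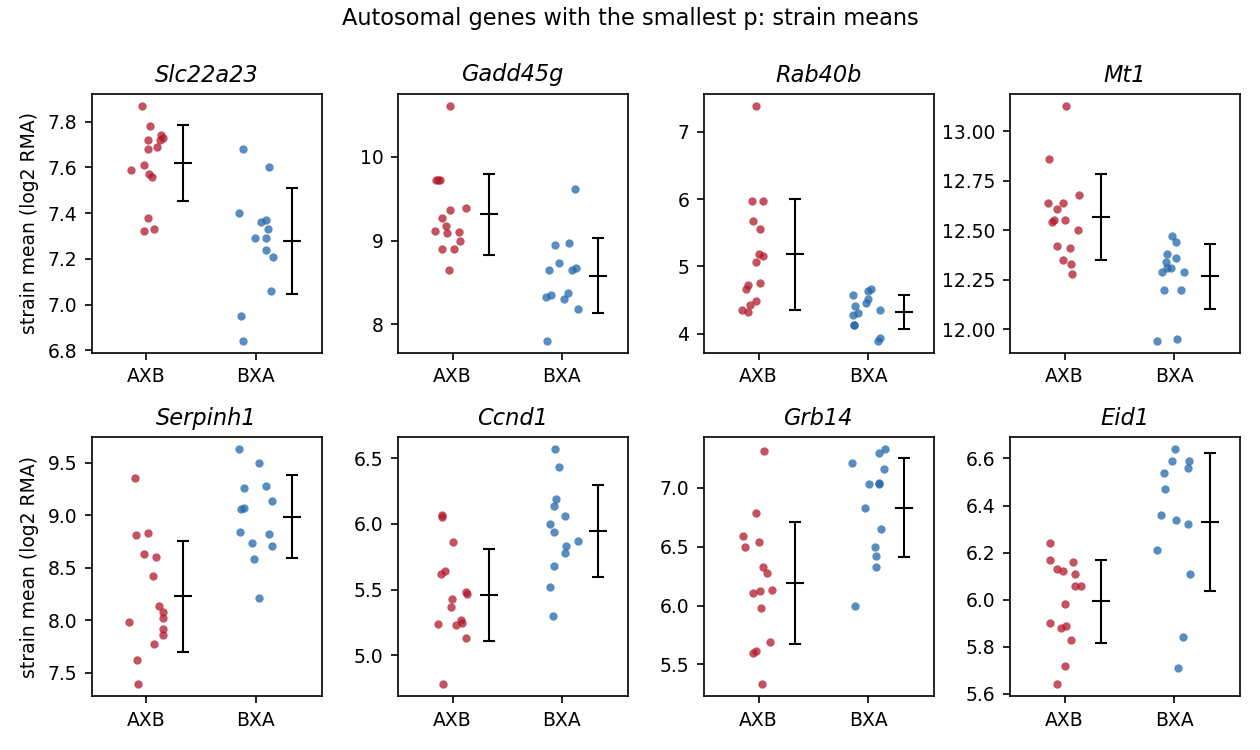
Strain means (log2 RMA) of 8 autosomal genes with the smallest p are shown for 15 AXB strains (red, left) and 13 BXA strains (blue, right), each point a strain, spread sideways for visibility, with the mean and SD beside it. The upper row is higher and the lower row lower in AXB, and the sets overlap in every panel.

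The 2 ranges of array title numbers, whose meaning the labels do not give, were analysed apart. Numbers up to 1038 covered 15 AXB arrays of 8 strains and 10 BXA arrays of 5 strains, so values there rest on few strains. Numbers from 1067 covered 18 AXB arrays of 9 strains and 16 BXA arrays of 9 strains. Of those 18 AXB arrays 14, from 7 strains, had numbers above 1116, against 0 in BXA. Within the higher range, title number and set can therefore hardly be told apart. All 20 leading autosomal genes kept their sign within both ranges, which their choice by the smallest p over the same arrays made likely. The size of several moved. Slc22a23 differed by 0.59 in the lower and 0.19 in the higher range, Gadd45g by 0.96 and 0.52, and Serpinh1 by -0.40 and -0.90. Eid1 differed by -0.04 and -0.46, while Ccnd1 (-0.41 and -0.52) and Grb14 (-0.52 and -0.68) moved less. The count called was 0 in each range, with 1464 and 1126 autosomal probe sets at an unadjusted p under 0.05, against 630 in the main fit.

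On the X chromosome lay Col4a6, whose 2 probe sets had the smallest p of all probe sets tested. Col4a6 encodes a chain of type IV collagen, the network of basement membranes, including those around smooth muscle. Its strain means were 3.12 to 5.10 (median 3.40) in AXB and 4.49 to 5.57 (median 5.04) in BXA. Of the AXB strains, 10 lay below every BXA strain, and the other 5 (AXB2/PgnJ, AXB4/PgnJ, AXB6/PgnJ, AXB12/PgnJ and AXB13/PgnJ), at 4.73 to 5.10, lay within the BXA range. The difference was -1.11 (-1.58 to -0.64, unadjusted p = 4e-05, adjusted p = 0.606 by limma), and a second probe set gave -0.94 (unadjusted p = 5.98e-05). The 2 probe sets did not pass in the strain-mean fit. Both passed when arrays were the unit with the strain as a random block (adjusted p = 0.00177 and 0.0277 by limma), but that fit used 1 correlation of 0.103 between arrays of a strain for all probe sets and so took them as nearly independent. For Col4a6 the strain means had an SD of 0.80 in AXB and 0.32 in BXA, against 0.43 between arrays of a strain, so these p-values are too small.

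The parents also differed for Col4a6. The A/J arrays read 3.15 and 3.57 and the C57BL/6J arrays 5.79, 4.75 and 5.56, a difference of -2.01 that was called (adjusted p = 0.00458 by limma). The call was lost without A/J array 1 or without C57BL/6J array 1, and the second probe set, at -1.62, was not called (adjusted p = 0.197 by limma). Measured against the midpoint of the parents, 10 of 15 AXB strains and 0 of 13 BXA strains were nearer to A/J. Within the ranges of title numbers Col4a6 differed by -0.72 and -1.33. It differed by -1.11 without the library labelled BXA16/PgnJ array 3 and by -1.02 with the AXB19 lines counted once. Col4a5, which encodes a partner chain and is the direct neighbour of Col4a6 among protein-coding genes, differed by -0.11 and -0.21 on its 2 probe sets. Their parental differences, -0.57 and -0.9, had the sign of that of Col4a6 but were smaller and not called.

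Over all 593 X-linked probe sets 0 were called (0%), while 43 (7.25%) had an unadjusted p under 0.05, 13 higher (2.19%) and 30 lower (5.06%) in AXB. After Col4a6 came Chrdl1, an antagonist of bone morphogenetic proteins, which 9 protein-coding genes separate from Col4a6. Its strain means were 2.96 to 4.09 (median 3.46) in AXB and 3.53 to 4.16 (median 3.76) in BXA. Of the AXB strains, 9 lay below every BXA strain, for a difference of -0.38 (adjusted p = 0.963 by limma), but a second Chrdl1 probe set gave 0.00. Tceal8 (-0.37), Armcx2 (-0.22) and Magee1 (-0.20) followed, each with an adjusted p of 1 by limma. Chrdl1, Armcx2 and Magee1 had means below the lowest array median in both sets. In the lower range of title numbers Tceal8 differed by only -0.04, Magee1 by -0.05 and Armcx2 by -0.06.

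The X held 1 further gene called between the parents, Cd99l2, a surface glycoprotein that helps leukocytes cross the endothelium. It lies 398 protein-coding genes from Col4a6. Its strain means were 3.95 to 6.34 (median 4.79) in AXB and 4.32 to 6.50 (median 5.99) in BXA, spanning nearly the same range. Nearer to A/J were 11 of 15 AXB strains and 4 of 13 BXA strains, and the AXB minus BXA difference was -0.64 (-1.20 to -0.08, adjusted p = 1 by limma). Between the parents the probe set read 5.08 and 4.72 in A/J and 6.66, 6.90 and 5.75 in C57BL/6J, a difference of -1.54 (adjusted p = 0.0454 by limma) that lost its call under 4 of the 5 omissions of 1 parental array. Other Cd99l2 probe sets differed between AXB and BXA by 0.05, -0.15 and -0.27.

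**Figure D3:**
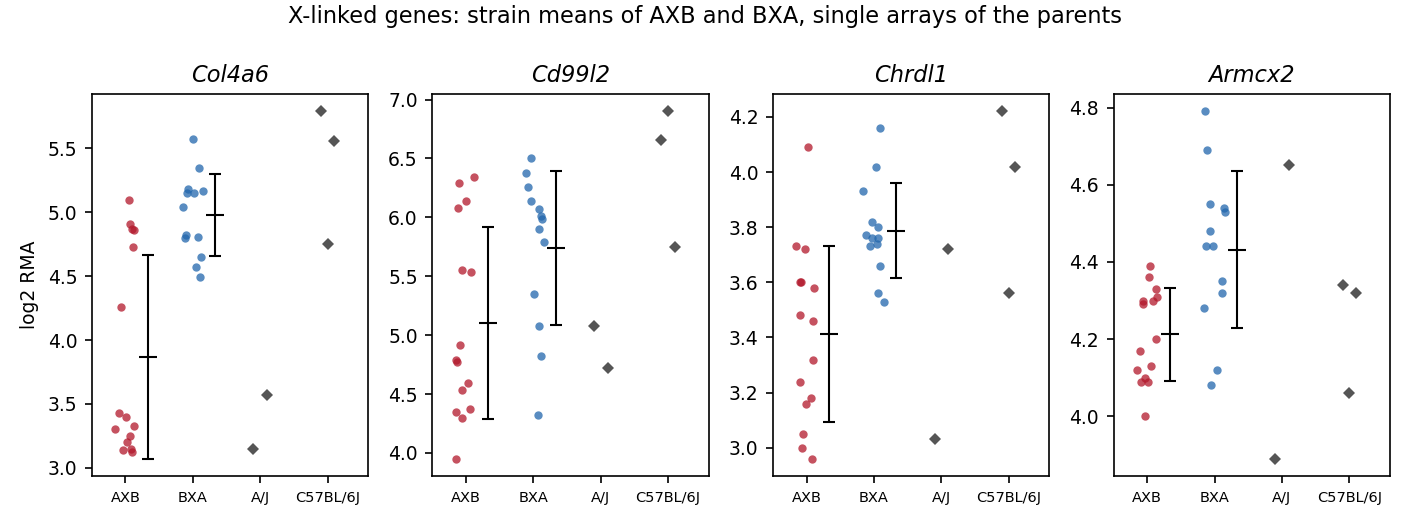
Log2 RMA levels of 4 X-linked genes are drawn as strain means for AXB (red) and BXA (blue), with mean and SD beside them, and as single arrays (grey diamonds) for A/J and C57BL/6J; points are spread sideways for visibility. In the Col4a6 panel 10 AXB strains lie below all 13 BXA strains.

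Y-linked genes, which a male inherits from the sire strain, showed no difference that passed. Of 17 Y-linked probe sets 0 had an adjusted or unadjusted p under 0.05 (0%), but 16 of them had means below the lowest array median (4.56) in both sets. The exception was Eif2s3y, a translation initiation factor subunit, with strain means of 4.06 to 7.62 (median 7.02) in AXB and 5.12 to 7.46 (median 7.14) in BXA and a difference of -0.11 (-0.76 to 0.54, adjusted p = 1 by limma). The smallest p was that of Uty, a homologue of the histone demethylase Kdm6a, with strain means of 3.54 to 4.36 (median 4.12) in AXB and 3.65 to 4.24 (median 4.0) in BXA. Its difference was 0.14 (-0.01 to 0.30, adjusted p = 1 by limma). Between the parents 0 of the 17 were called (0%), 2 had an unadjusted p under 0.05 (11.8%), and Uty averaged 3.89 in both. The 7 measured genes of the Y-linked list had a median of 0.01 (5 positive). A list of X partners of Y-linked genes, which also held Xist, not such a partner, had a median of 0.03 (7 measured, 5 positive). Of the mitochondrial genome, which descends from the dam, no transcript was named among the probe sets tested. Nuclear genes that work with it were measured: 20 respiratory chain subunits had a median difference of 0.02 (16 positive, 0 called), and 14 genes of the mitochondrial ribosome and of mitochondrial DNA upkeep 0.04 (12 positive, 0 called). Ndufv1, a subunit of complex I, differed by 0.07 (-0.04 to 0.19) and the complex III subunit Uqcrfs1 by 0.06 (-0.05 to 0.17).

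The parental means share no array with AXB and BXA, although the spread behind the parental test was estimated over 64 arrays, of which 59 were AXB or BXA. The parental contrast gave a set of genes on which the balance of parental levels could be read. A/J minus C57BL/6J called 66 autosomal probe sets of 60 genes (0.385%), 30 higher (0.175%) and 36 lower (0.21%) in A/J, while 1168 (6.81%) had an unadjusted p under 0.05. For each of these, every strain was placed by the parental midpoint. The share of strains nearer to A/J averaged 52.2% ± 21 in AXB and 48.6% ± 22.5 in BXA (SD over the 66 probe sets, which share strains and in part genes). The count ran from 1 to 15 strains in AXB and from 0 to 13 in BXA. Wdfy1 was nearer to A/J in all 15 AXB and all 13 BXA strains, and Eci3 in 14 and 13. Fbf1 was nearer to A/J in 1 AXB and 0 BXA strains, and St6galnac5 in 2 and 1. At such probe sets nearly all strains lay on the same side of the midpoint, which the averages do not show. The cause was not tested. The difference AXB minus BXA had the sign of the parental difference for 46 of the 66, and amounted to a median of 0.0352 of the parental difference (range -0.40 to 0.37). Without the library labelled BXA16/PgnJ array 3 the BXA share averaged 49.1% ± 22.5 (SD over the 66 probe sets), the BXA count was another for 8 probe sets, and 44 of the 66 had the parental sign. For the 2 X-linked probe sets called between the parents (0.337% of 593) the shares of strains nearer to A/J averaged 70% in AXB and 15.4% in BXA, and AXB minus BXA amounted to 0.55 of the parental difference for Col4a6 and 0.42 for Cd99l2.

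**Figure D4:**
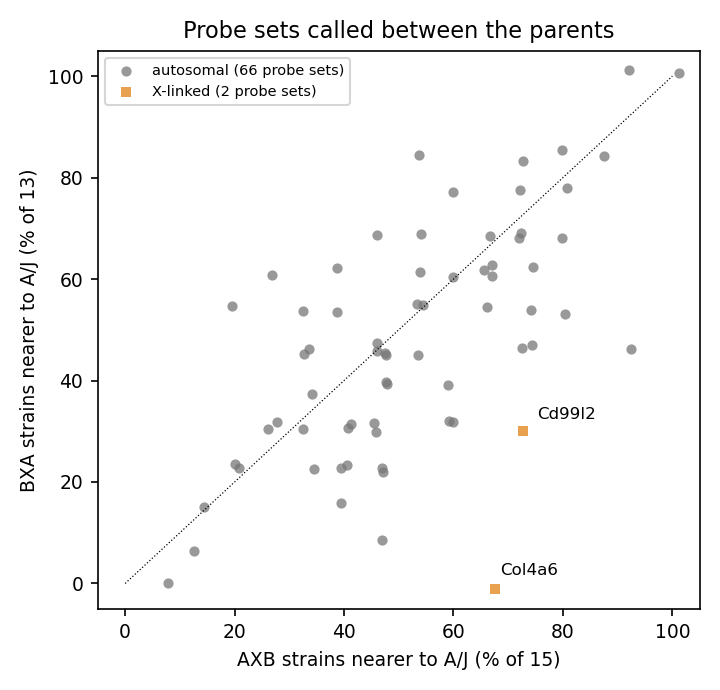
Each point is a probe set called between A/J and C57BL/6J, placed by the percentage of AXB strains (horizontal) and of BXA strains (vertical) whose mean is nearer to A/J, shifted slightly so that coinciding points show; the dotted line marks equal shares. The 66 autosomal points scatter around the line, and both X-linked points (orange squares) lie below it.

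The 10 autosomal genes with the largest called parental difference, a choice made after values were seen, show how parental levels were spread over strains. No genotypes were used here, so these are levels of probe sets and not alleles. H2-D1 on chromosome 17 averaged 10.14 in A/J and 3.97 in C57BL/6J, and 7 of 15 AXB and 6 of 13 BXA strains were nearer to A/J. Its strain means were 3.20 to 10.83 (median 3.66) in AXB and 3.33 to 10.54 (median 5.78) in BXA, so both sets held strains at either parental level. The BXA median was the mean of BXA2/PgnJ, whose arrays disagreed (7.85 and 3.7). Without the library labelled BXA16/PgnJ array 3 the AXB minus BXA difference was -0.13, against 0.06 with it. Another H2-D1 probe set had a parental difference of 5.74, but the brightest averaged 10.63 in A/J and 10.92 in C57BL/6J. The remaining H2-D1 probe sets, both dim, had parental differences of 0.10 and 0.11. Pttg1 on chromosome 11, the separase inhibitor securin, averaged 7.21 in A/J and 11.50 in C57BL/6J, with 9 of 15 AXB and 8 of 13 BXA strains nearer to A/J. Other Pttg1 probe sets had parental differences of -4.01 and -0.56. Nnmt on chromosome 9, which methylates nicotinamide, was nearer to A/J in 8 AXB and 9 BXA strains, and the interferon-induced GTPase Gbp2b on chromosome 3 in 10 and 8.

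Wider imbalances occurred too. Uqcr10 on chromosome 11, a small subunit of respiratory complex III, was nearer to A/J in 11 of 15 AXB and 6 of 13 BXA strains, with a difference of -0.92 (-2.67 to 0.84). Rpgrip1 on chromosome 14 leaned the other way: 4 of 15 AXB and 8 of 13 BXA strains were nearer to A/J, and its difference of 1.35 (-0.01 to 2.70, adjusted p = 1 by limma) was opposite in sign to the parental difference of -3.39. Its strain means were 3.70 to 8.20 (median 7.76) in AXB and 3.48 to 7.99 (median 4.37) in BXA, with no strain between 4.71 and 7.49. Other probe sets of Uqcr10 and Rpgrip1 did not all share these patterns: Uqcr10 had a brighter probe set with a parental difference of -0.02 and an AXB minus BXA difference of 0.02, and the 3 other Rpgrip1 probe sets differed by 0.00 to 0.06 between AXB and BXA. Tmem87a (10 of 15 AXB, 7 of 13 BXA), the small nucleolar RNA host gene Gas5 (5 and 4), the peroxiredoxin Prdx2 (8 and 8) and Isoc2b (9 and 10) completed the 10. A brighter Prdx2 probe set had a parental difference of only -0.14, and dimmer Gas5 probe sets had -0.13 and 0.42. Without the library labelled BXA16/PgnJ array 3 the BXA count was 9 for Prdx2 and 6 for Tmem87a, and it was the same for the other 8 genes. The parental call of Gas5 was lost under 4 of the 5 omissions of 1 parental array, and that of Isoc2b without A/J array 1.

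The AXB19 lines carry related names, and 20 marker genes were compared between them. AXB19/PgnJ and AXB19a/PgnJ lay on the same side of the parental midpoint for 16 of 20, AXB19/PgnJ and AXB19b/PgnJ for 17, and AXB19a/PgnJ and AXB19b/PgnJ for 13. Other pairs of the 28 strains shared 2 to 17 (median 11 over 375 pairs).

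Genes of the arterial wall and of other cells were read as lists, none of which had a member called. Over all 22327 probe sets 860 (3.85%) had an unadjusted p under 0.05, 382 (1.71%) higher and 478 (2.14%) lower in AXB, the median difference was 0.01 and 11853 were positive. In whole-vessel RNA, fewer cells of a type and less RNA per cell cannot be told apart. Genes of a list were read on the same strains, so their shared sign is not a count of independent results. All 14 measured smooth muscle contractile genes had negative differences (median -0.21, from -0.43 to -0.07), with 0 at an unadjusted p under 0.05. The score of this list, a mean of centred log2 levels, overlapped between the sets. It ran from -1.07 to 0.62 (median 0.03) over AXB strains and from -0.28 to 0.53 (median 0.17) over BXA strains. The tropomyosins Tpm2 (-0.23, interval -0.45 to 0.00) and Tpm1 (-0.28, -0.58 to 0.02) were nearest to the threshold, and smooth muscle actin Acta2 differed by -0.08. Of 17 elastic fibre and matrix genes 16 were negative (median -0.15), and 3 had an unadjusted p under 0.05, namely the fibrillar collagen Col3a1 (-0.29), the proteoglycan Lum (-0.46) and Fbln5 (-0.27), which organises elastic fibres. Elastin itself, Eln, differed by -0.37 (-0.79 to 0.06).

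Col3a1 had strain means of 9.86 to 11.11 (median 10.43) in AXB and 10.36 to 11.02 (median 10.70) in BXA, so the sets overlapped widely. In the lower range of title numbers Col3a1 differed by -0.06, Lum by 0.32 and Tpm1 by 0.15, and in the higher range by -0.42, -0.89 and -0.59, so the last 2 had opposite signs in the 2 ranges. Endothelial genes had a median of -0.06 (4 of 13 positive) and adventitial fibroblast genes 0.01 (5 of 7 positive). The endothelial junction gene Cdh5 differed by 0.11 and Egfl7 by -0.15, and the fibroblast gene Clec3b by 0.34.

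Macrophage genes were positive in all 15 measured (median 0.15, from 0.04 to 0.48), with 2 at an unadjusted p under 0.05. The macrophage score ran from -0.9 to 0.63 (median -0.03) over AXB strains and from -0.85 to 0.64 (median -0.25) over BXA strains. Cd163, the scavenger receptor for haemoglobin, had strain means of 4.85 to 7.43 (median 6.37) in AXB and 5.08 to 6.55 (median 5.89) in BXA. The difference was 0.48 (0.06 to 0.90, adjusted p = 1 by limma), and both sets held low strains. Itgam, an integrin of myeloid cells, differed by 0.27, but by -0.10 within the lower range of title numbers. Complement genes C1qa (0.20), C1qb (0.24) and C1qc (0.19) stood in the same direction, each with an interval across 0. Lymphocyte genes had a median of 0.14 (7 of 10 positive), interferon response genes -0.09 (2 of 11 positive) and histocompatibility genes 0.00 (6 of 10 positive).

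**Figure D5:**
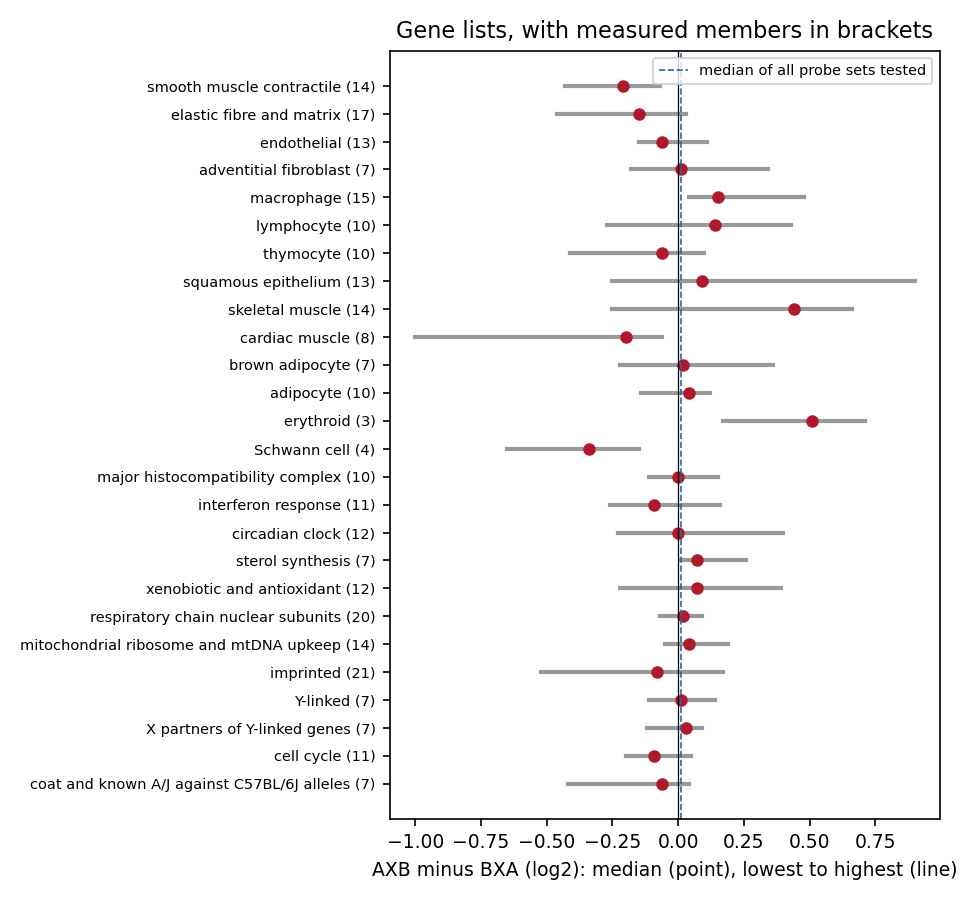
For each gene list the point is the median and the line the lowest to highest AXB minus BXA difference (log2) over its measured members, whose number stands in brackets; the dashed line is the median of all probe sets tested, 0.01. The smooth muscle, cardiac muscle and Schwann cell lines lie wholly below 0, and the macrophage, erythroid and sterol synthesis lines wholly above it.

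Markers of tissues beside the aorta varied between arrays in both sets. The score of 10 thymocyte genes, a mean of centred log2 levels, ran from -1.02 to 1.80 (median 0.16) over AXB strains and from -1.01 to 2.44 (median 0.32) over BXA strains. The squamous epithelium score ran from -1.05 to 3.52 (median -0.23) in AXB and from -1.0 to 1.78 (median -0.61) in BXA, and the skeletal muscle score from -2.26 to 2.34 (median 0.08) in AXB and from -3.14 to 2.09 (median 0.05) in BXA. All 3 scores overlapped widely between the sets. The 10 thymocyte genes had a median difference of -0.06 (4 positive) and the 13 squamous epithelium genes 0.09 (10 positive), with 0 of either at an unadjusted p under 0.05. Without arrays whose thymocyte or squamous epithelium score exceeded 1 the autosomal count called was again 0, with 489 at an unadjusted p under 0.05. Skeletal muscle genes were positive in 12 of 14 (median 0.44), with wide intervals, as for Tnnc2 (0.66, -0.74 to 2.07). Cardiac muscle genes were negative in 8 of 8 (median -0.20), Nppa (-1.0, -2.74 to 0.74) most of all, although Nppa differed by 0.43 in the lower range of title numbers. The part of these tissues in the wall lists was not tested further.

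All 3 measured erythroid genes were positive, with Alas2, the first enzyme of haem synthesis in red cells, at 0.71 (-0.01 to 1.44), but at -0.37 in the lower range of title numbers. The 4 Schwann cell genes were all negative (median -0.34), and S100b had strain means of 4.70 to 7.81 (median 5.97) in AXB and 5.44 to 7.87 (median 6.68) in BXA, a difference of -0.65 (-1.16 to -0.13, adjusted p = 1 by limma). Brown adipocyte genes had a median of 0.02 (4 of 7 positive) and adipocyte genes 0.04 (7 of 10 positive). The interval was narrow for Ucp1 (-0.07, -0.21 to 0.06), the uncoupling protein of brown fat, but wide for Elovl3 (0.36, -0.34 to 1.07), also a bright gene.

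Genes whose expression depends on parent of origin were included, since reciprocal crosses are a classical test of them, although alleles in inbred strains are the same from both parents. Of 21 measured imprinted genes 16 were negative (median -0.08), with 3 at an unadjusted p under 0.05, all lower in AXB. Ndn had strain means of 4.64 to 6.63 (median 5.94) in AXB and 5.06 to 7.47 (median 6.23) in BXA, a difference of -0.52 (-0.94 to -0.09, adjusted p = 1 by limma). The cell cycle inhibitor Cdkn1c differed by -0.40 and the sarcoglycan Sgce by -0.23, whereas Igf2 (-0.19, -0.52 to 0.14), Peg3 (0.17, -0.43 to 0.77) and Meg3 (-0.51, -1.05 to 0.02) had intervals across 0.

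Of 12 circadian clock genes 5 were positive (median 0.00), with 1 at an unadjusted p under 0.05. Per1, a repressor of the clock that also responds to stress hormones, had strain means of 6.45 to 8.37 (median 7.28) in AXB and 6.25 to 7.45 (median 6.80) in BXA, a difference of 0.40 (0.08 to 0.73, adjusted p = 1 by limma). Its fellow Per2 differed by 0.00 and Dbp by -0.23 (-0.59 to 0.13). Sterol synthesis genes had a median of 0.07 (7 of 7 positive), xenobiotic and antioxidant genes 0.07 (7 of 12 positive) and cell cycle genes -0.09 (2 of 11 positive). Among 7 measured genes known for alleles that differ between A/J and other strains (median -0.06, 1 positive), the muscle membrane repair gene Dysf differed by -0.42 (-0.75 to -0.09, adjusted p = 1 by limma), with strain means of 5.0 to 6.53 (median 5.51) in AXB and 5.45 to 6.84 (median 5.95) in BXA. Nnt, a mitochondrial transhydrogenase that carries a deletion in C57BL/6J, differed by -0.24 (-0.67 to 0.19).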

How the data were processed

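RNA from aortas of male mice of 94 strains had been hybridised to Affymetrix arrays of 1 colour, and 64 arrays (AXB, BXA, A/J and C57BL/6J) entered the fits. The deposited values are log2 expression values per probe set and array, made with GCOS and RMA per the submitters' processing notes. RMA adjusts background, normalises arrays to 1 distribution of values (quantiles) and summarises probes, so a shift shared by all genes is removed. Which versions of these tools and which build were used is not given in the sources used here. No intensities, detection calls or scan batches were used here, and the number of arrays limits precision.

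From these, 1 mean per strain was computed. AXB minus BXA was fitted with limma 3.58.1 in R 4.3.3 (lmFit and eBayes, two-sided, Benjamini-Hochberg over 22327 probe sets after 89 control probe sets were left out; called at an adjusted p under 0.05). A/J minus C57BL/6J came from a fit of 64 arrays by strain with 34 residual degrees of freedom. Chromosomes came from a RefSeq gene table of assembly GRCm38.p6 by Entrez ID, and its coordinates are not printed. Of the probe sets 17783 had 1 symbol, 284 several and 4260 no listed gene, and 16 with 1 symbol had no place in the gene table. The scripts were tested on simulated data.

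Named were the 10 autosomal genes with the smallest p in each direction, up to 5 X-linked and 5 Y-linked genes, and members of 27 gene lists, each measured by its brightest probe set. The mitochondrial genome list had no measured member. Strains, gene lists and alternatives were chosen with earlier results of these data known. Alternatives covered sister lines, title numbers, scores of other tissues, variance moderation, filters, scaling, weights, arrays as the unit, and omitted strains and arrays. Omitting or using alone the library labelled BXA16/PgnJ array 3, and omitting arrays of low correlation, were added after seeing the data. A score is the mean over a list of log2 levels centred on each probe set's mean over all arrays.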

Additional observations from a re-analysis of the deposited data

Results flagged for a closer look

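AXB19b/PgnJ was the 1 strain of the comparison with 4 arrays, enough to ask whether 1 array lay far from the rest, and 88 genes were looked at in it. In 5 of them 1 array stood apart by Dixon's 95% critical value, a level that by its construction marks about 1 in 20 groups by chance, and the genes share these 4 arrays. Satb1, a chromatin organiser of thymocytes, read 10.91 on 1 array and 5.23 to 6.13 on the others. Lef1, a thymocyte transcription factor, read 5.21 on 1 array and 3.01 to 3.10 on the others. Nppa, the atrial natriuretic peptide, read 5.26 on 1 array and 4.22 to 4.30 on the others. Cox8b, a cytochrome oxidase subunit of muscle and brown fat, read 12.27 on 1 array and 12.59 to 12.61 on the others. H2-D1 read 3.80 on 1 array and 3.4 to 3.42 on the others.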

How the results depend on the processing

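The autosomal count called was 0 in 17 of 18 alternatives and in all 28 omissions of 1 strain, and 1 (Ccnd1, -0.54, adjusted p = 0.0185 by limma) with the tissue scores as covariates. The X-linked count called was 0 in 16 of 17 alternatives, and 2, both Col4a6, with arrays as the unit and the strain as a random block at a correlation of 0.103 (-1.11 and -0.93, adjusted p = 0.00177 and 0.0277 by limma). Autosomal probe sets at an unadjusted p under 0.05 were not stable in number. Against 630 of 17157 (3.67%) in the main fit, there were 1464 in the lower range of title numbers and 1126 in the higher range. Without arrays of low correlation there were 1377. From fewer probe sets tested came 294 with probe sets above the median level alone and 387 with 1 probe set per gene. Omitting 1 strain gave 515 to 845. X-linked probe sets at an unadjusted p under 0.05 numbered 19 without arrays whose thymocyte or squamous epithelium score exceeded 1, and 72 without arrays of low correlation. They numbered 12 with probe sets above the median level alone and 34 to 59 when 1 strain was omitted. The parental contrast called 102 autosomal probe sets with the arrays of all 94 strains in the fit, and 27 to 88 without 1 parental array (27 without A/J array 1, 39 and 40 without C57BL/6J array 1 or 2). Without 1 parental array the parental difference was 2.91 to 3.41 for Gas5, -2.96 to -2.28 for Isoc2b, -2.32 to -1.79 for Col4a6 and -1.88 to -1.31 for Cd99l2.

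The 20 leading autosomal genes kept their sign in every alternative and omission run. They were chosen by the smallest p in the same strains, so this was largely set by the choice. Among the other genes named, none called, several turned sign, and the cause was not tested. With title numbers up to 1038 alone the tested ones were Lum (0.32), Itgam (-0.10), Tpm1 (0.15), Alas2 (-0.37), Hba-a1 (-0.07), Dpt (0.46), Actc1 (0.04), Nppa (0.43), Cox8b (-0.05), Cd2 (-0.62), Car3 (0.04), Tek (0.34), Mrpl20 (-0.36), Usp9x (0.42), Kdm5c (-0.11), Lef1 (-0.70), H2-DMa (-0.96) and Cd74 (-0.68). With numbers from 1067 alone they were Cdk1 (0.05), Cyp51 (-0.08), Lep (0.07), Tnnc2 (-0.02) and Myh1 (-0.02). With numbers up to 1116, where both sets occur, they were Dpt (0.01), Tek (0.02), Mrpl20 (0.00), Kdm5c (-0.01), Lef1 (-0.02), H2-DMa (-0.02) and Cd74 (0.00). Without arrays whose thymocyte or squamous epithelium score exceeded 1 they were Tek (0.02), Usp9x (0.19) and Lef1 (-0.16). Without arrays of low correlation they were Zfy2 (-0.01), Usp9x (0.01), Lef1 (-0.06), H2-DMa (-0.05) and Cd74 (-0.03). With the AXB19 lines counted once they were Lef1 (-0.02) and Cd74 (-0.01), and Lef1 ran from -0.01 (without AXB19/PgnJ) to 0.23 (without BXA7/PgnJ) when 1 strain was omitted. Over all settings the genes chosen for their parental difference also took both signs for H2-D1 (-0.99 to 1.01), Pttg1 (-1.0 to 0.14), Nnmt (-0.23 to 0.72), Tmem87a (-0.15 to 0.88), Gas5 (-0.36 to 0.02), Gbp2b (-0.23 to 0.56) and Isoc2b (-0.51 to 0.31). No paired analysis was possible because strain means carry no replicate number: replicate numbers count arrays within a strain, and a line number found in both sets (AXB1/PgnJ and BXA1/PgnJ) names separate lines.

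Precision is limited by the 28 strains, most with 2 arrays. The lower range of title numbers held only 8 AXB and 5 BXA strains. A difference that missed the threshold is not shown to be absent. Of the AXB arrays 14, from 7 strains, had title numbers above 1116, against 0 in BXA.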
